A study of Homo sapiens with 12 samples.

Results

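The response to a high dose of IFNα was examined in one of the 2 established head and neck squamous cell carcinoma (HNSCC) lines of the series, Cal27 or HN30. The 4 samples used were the untreated samples D1 and D2 (Control) and F1 and F2 (High dose), which received 200 ng/ml IFNα for 24 h, chosen by their sample letters from the 12 samples of the series. The labels do not say which line carries the letters D to F, so it is called line set D-F. Samples E1 and E2 (Low dose, 20 ng/ml for 24 h by the design text) belong to the same set, and A, B and C are the control, low-dose and high-dose samples of the other line. No source used here says whether the replicates came from separate cultures. The p-values therefore measure the spread between replicate samples, estimated over all 12 samples of both lines, and it may be technical.

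IFNα is a type I interferon. It binds a receptor of the chains IFNAR1 and IFNAR2, whose kinases JAK1 and TYK2 phosphorylate STAT proteins, STAT2 among them, and these join IRF9 to form ISGF3, a factor that binds interferon-stimulated response elements and switches on antiviral genes. Several of the induced genes, among them STAT2 and IRF9, encode parts of the pathway itself, while others such as USP18 restrain it. In tumour cells the same cytokine also raises antigen presentation and ligands of immune checkpoints.

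RNA depleted of rRNA was sequenced, and a gene's level is given as TPM, an abundance scaled for transcript length and depth. The total estimated count was 14513359 in D1, 14900296 in D2, 11540076 in F1 and 11845059 in F2, so both treated samples were shallower than both controls. Of the 10 markers of squamous epithelium, 9 were at 1 TPM or more in all 4 samples and KRT14 was at 0 in D and under 1 TPM in F. They summed to 1523 to 1573 TPM in D and 1735 to 1758 TPM in F. The summed level of 8 fibroblast markers was between 8.97 and 15.2 TPM with 5 of them under 1 TPM in every sample, and the 6 endothelial markers summed to less than 1 TPM. The 8 leukocyte markers summed to 5.34 to 7.63 TPM in D and 37.1 to 40.6 TPM in F. That rise was carried by CD68, which was called higher, while 6 of the 8, PTPRC and CD3E among them, were under 1 TPM in all 4 samples. In bulk RNA, more cells with a transcript and more transcript per cell cannot be told apart.

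Genes were called at a minimum change of 2-fold and a maximum adjusted p-value of 0.05 (edgeR's quasi-likelihood test, Benjamini-Hochberg adjustment over all genes tested). Of 19944 genes tested, 333 (1.67%) were called higher in F than in D and 83 (0.416%) were called lower, so that 80.0% of the 416 calls were increases. The median log2 fold change over all genes was 0. It was 1.93 among the genes called higher, or 1.89 with genes at 0 counts in a group set to their bound, and -1.46 among those called lower, or -1.34 with such bounds. With the same bounds, 41 increases reached 4 or more on the log2 scale and 2 decreases reached -4 or less. Without D1 the genes called lower numbered 54, and without D2 they numbered 48, whereas the genes called higher numbered between 247 and 263 with any 1 of the 4 libraries left out. The genes called higher held 0.777% and 0.715% of all TPM in D1 and D2 and 3.65% and 3.57% in F1 and F2. In counts scaled for depth, both F samples lay above both D samples in all 333 genes called higher. They lay below both in all 83 called lower. Over all tested genes, 25.3% had both F samples above both D samples and 25.7% below, so such separation adds nothing to a call.

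**Figure D1:**
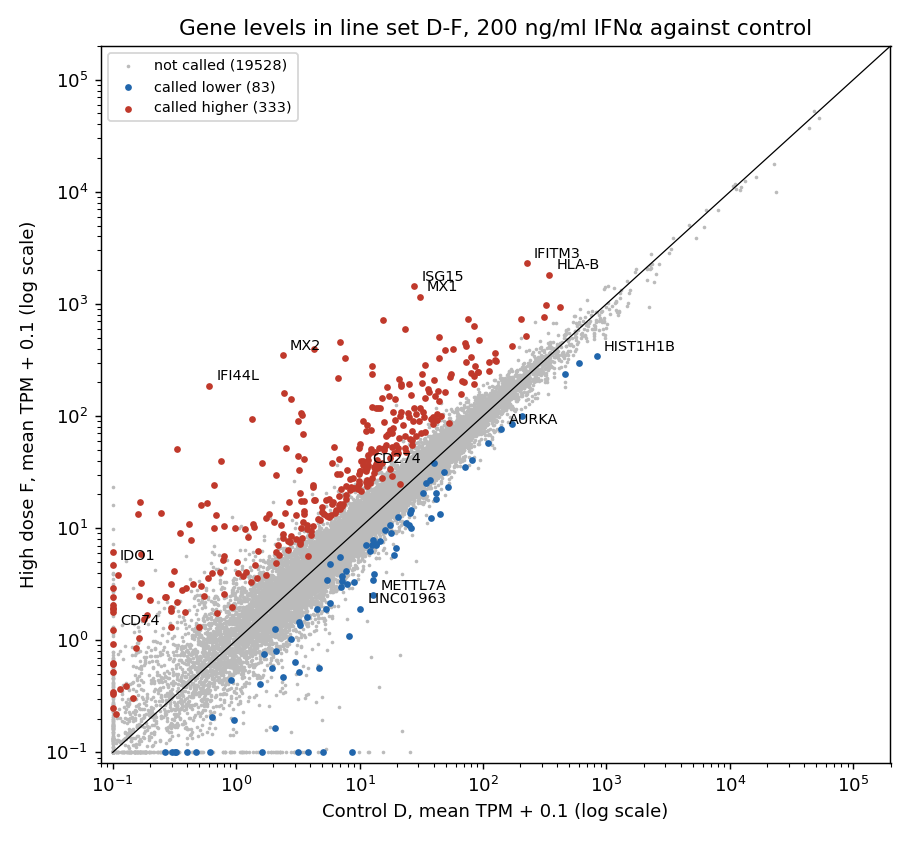
Mean level of each tested gene in Control D (x axis) and High dose F (y axis), both as TPM plus 0.1 on log scales, with the 333 genes called higher in red, the 83 called lower in blue and all others in grey. The red points reach above 1000 TPM for 4 genes, IFITM3, HLA-B, ISG15 and MX1.

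STAT2 and IRF9 of ISGF3 rose, whereas IFNAR1 and JAK1, which act above them, were not called. STAT2, a signal transducer of type I interferons, was at 86.7 and 72.5 TPM in D1 and D2 and 346 and 321 TPM in F1 and F2. Its log2 fold change was 1.91 ± 0.12 (SE, n = 2 per group; adjusted p = 9.53e-06 by edgeR). IRF9, the DNA-binding part of ISGF3, was at 16.8 and 10.2 TPM in D and 124 and 113 TPM in F (log2 2.99 ± 0.19, adjusted p = 1.1e-05). Both treated samples lay above both controls in each of these genes, as in 25.3% of all tested genes by scaled counts. The receptor chain IFNAR1 was at 16.6 and 17.6 TPM in D and 18.4 and 18.0 TPM in F, and JAK1 was at 57.7 and 57.6 TPM and then 64.5 and 64.9 TPM. Of the 8 genes in the receptor and ISGF3 list, 3 were called higher and none lower, and STAT3 was at 96.9 and 104 TPM in D and 134 and 121 TPM in F (adjusted p = 0.145).

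The antiviral effectors were the list with the most calls. Of 50 members, 46 were called higher and none lower, with a median log2 fold change of 2.82 against 0 over all genes. Over all tested genes 1.67% were called higher and 0.416% lower, and the calls of every list are read against these shares. The list's summed level was 2185 and 1959 TPM in D and 15666 and 14726 TPM in F. MX1, a dynamin-like GTPase that blocks virus nucleocapsids, was at 29.9 and 31.1 TPM in D and 1192 and 1134 TPM in F (log2 5.21 ± 0.09, adjusted p = 4.8e-09). Its relative MX2 was at 3.02 and 1.56 TPM and then 378 and 318 TPM (log2 7.15 ± 0.39). Both genes lie on chromosome 21. ISG15, a ubiquitin-like protein that is joined to other proteins, reached 1367 and 1506 TPM from 21.5 and 33.8 TPM (log2 5.60 ± 0.25, adjusted p = 8.53e-07).

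The steepest change among the effectors was that of IFI44L, an antiviral gene with feedback activity on interferon signalling. It was at 0.157 and 0.855 TPM in D and 194 and 177 TPM in F, with a log2 fold change of 8.45 ± 0.21. OAS2, which makes a second messenger from ATP on sensing double-stranded RNA, was at 8.21 and 6.69 TPM in D and 335 and 325 TPM in F (log2 6.54 ± 0.17). IFIT1, a sensor of viral RNA caps, was at 15.5 and 15.3 TPM and then 721 and 710 TPM, and RSAD2, which encodes viperin, was at 2.65 and 2.68 TPM and then 148 and 136 TPM. In each of these induced genes the replicates of a group lay far closer to each other than to the other group. IFITM1, a membrane protein that blocks virus entry, was an exception in its spread, with 635 TPM in F1 and 162 TPM in F2 against 6.15 and 2.13 TPM in D. IFITM3, its neighbour, was at 300 and 150 TPM in D and 2297 and 2310 TPM in F (log2 3.28 ± 0.26), the highest treated level of any gene called higher. The IFITM genes are near-identical in part, so the division of reads between them is uncertain.

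SAMD9L, a member of the effector list that was not called, was at 19.5 and 20.04 TPM in D and 104 and 148 TPM in F, and its estimated counts were 698 and 727 and then 1542 and 5140 (adjusted p = 0.0802). EIF2AK2, the kinase PKR that shuts down translation, was called with a smaller change, from 79.0 and 144 TPM to 269 and 238 TPM (log2 1.27 ± 0.12). BST2, a tether of budding viruses, went from 213 and 193 TPM to 743 and 736 TPM. These genes were well expressed before treatment, unlike IFI44L and MX2.

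The motif searched for was that of an interferon-stimulated response element, TTTC and TTTC with any 2 bases between them, read on either strand. The search covered the 250 bases upstream of each start in the RefSeq promoter table used (GRCh38.p14). Of 19944 tested genes 11551 matched a listed start. MX2, OAS2, USP18 and IRF7 were among the induced genes that did not, so they are outside the shares below. Overlapping matches were counted separately. Of the 198 genes called higher that matched a promoter, 52 (26.3%) held it, compared with 2 of 53 genes called lower (3.77%), 351 of 11300 tested genes that were not called (3.11%) and 1014 of 27305 genes in the whole promoter table (3.71%). It was found in 15.6% of the matched genes with a log2 increase of 1 to 2, in 36.4% of those at 2 to 4 and in 47.8% of those at 4 or more. A match is a description of letters and not evidence of binding. Windows of 30 bases are shown for 5 induced genes whose windows overlap no annotated exon, with the matches in capitals. They are given 5′ to 3′ on the strand of the gene.
CXCL10: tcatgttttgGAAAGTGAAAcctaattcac
ISG15: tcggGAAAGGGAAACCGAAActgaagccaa
HERC5: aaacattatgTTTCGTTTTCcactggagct
TNFSF10: gaggagcttcTTTCAGTTTCcctcctttcc
CD274: catgTTTCACTTTCTGTTTCatttctatac
The windows are at chr4:76023699-76023728 (minus strand), chr1:1013380-1013409 (plus), chr4:88457035-88457064 (plus), chr3:172523598-172523627 (minus) and chr9:5450330-5450359 (plus). The match starts 221 bases before the start site in CXCL10, 107 in ISG15, 74 in HERC5, 187 in TNFSF10 and 202 in CD274. Of 38 matched antiviral effectors 25 (65.8%) held the motif, as did 8 of 15 genes of HLA class I presentation and 1 of 8 chemokines.

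The genes that attach and remove ISG15 rose with it. UBA7, the enzyme that activates ISG15, was at 15.3 and 23.1 TPM in D and 137 and 148 TPM in F (log2 3.21 ± 0.16). HERC5, the ligase that joins it to new proteins, had 324 and 306 counts in D and 2087 and 2054 counts in F (log2 3.04 ± 0.09). USP18, which removes ISG15 and also restrains the receptor, was at 3.16 and 3.00 TPM and then 92.6 and 88.9 TPM (log2 4.78 ± 0.17), and its reads can be shared with the near-identical USP41. Of 12 feedback regulators, 5 were called higher and none lower. SOCS1, an inhibitor of JAK kinases, was at 0.376 and 0.671 TPM in D and 1.42 and 1.91 TPM in F and was not called (adjusted p = 0.123).

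Of 14 sensors of foreign nucleic acid and their adaptors, 8 were called higher and none lower. DDX58, which encodes RIG-I, was at 22.3 and 20.8 TPM in D and 193 and 178 TPM in F (log2 3.01 ± 0.09), and IFIH1, which encodes MDA5, was at 16.4 and 18.3 TPM and then 155 and 148 TPM (log2 3.14 ± 0.11). DHX58, their regulator LGP2, was at 4.30 and 2.54 TPM and then 40.5 and 41.7 TPM. ZBP1, a sensor of left-handed nucleic acid that can start necroptosis, was at 0.437 and 0.0259 TPM in D and 53.3 and 47.4 TPM in F. MAVS, the adaptor below RIG-I and MDA5, was not called and was at 72.3 and 69.9 TPM and then 53.0 and 53.9 TPM, a change under 2-fold (log2 -0.49 ± 0.07, adjusted p = 0.0022). Of the guanylate-binding proteins, large GTPases that act on membranes of intracellular pathogens, 5 of 6 were called higher. GBP4 rose from 6.63 and 5.55 TPM to 53.8 and 51.8 TPM and GBP1 from 18.4 and 13.2 TPM to 91.5 and 85.5 TPM. GBP5 was at 0.0561 and 0.0852 TPM in D and 3.86 and 2.39 TPM in F, and GBP6 lost its call without D2 (log2 1.31). Among 7 IRF genes, IRF7 and IRF9 were called. IRF7, which amplifies type I interferon production, was at 12.4 and 12.6 TPM in D and 126 and 113 TPM in F (log2 3.33 ± 0.22), and IRF1 was at 68.4 and 71.4 TPM and then 127 and 115 TPM, under the 2-fold threshold (log2 0.66 ± 0.09).

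**Figure D2:**
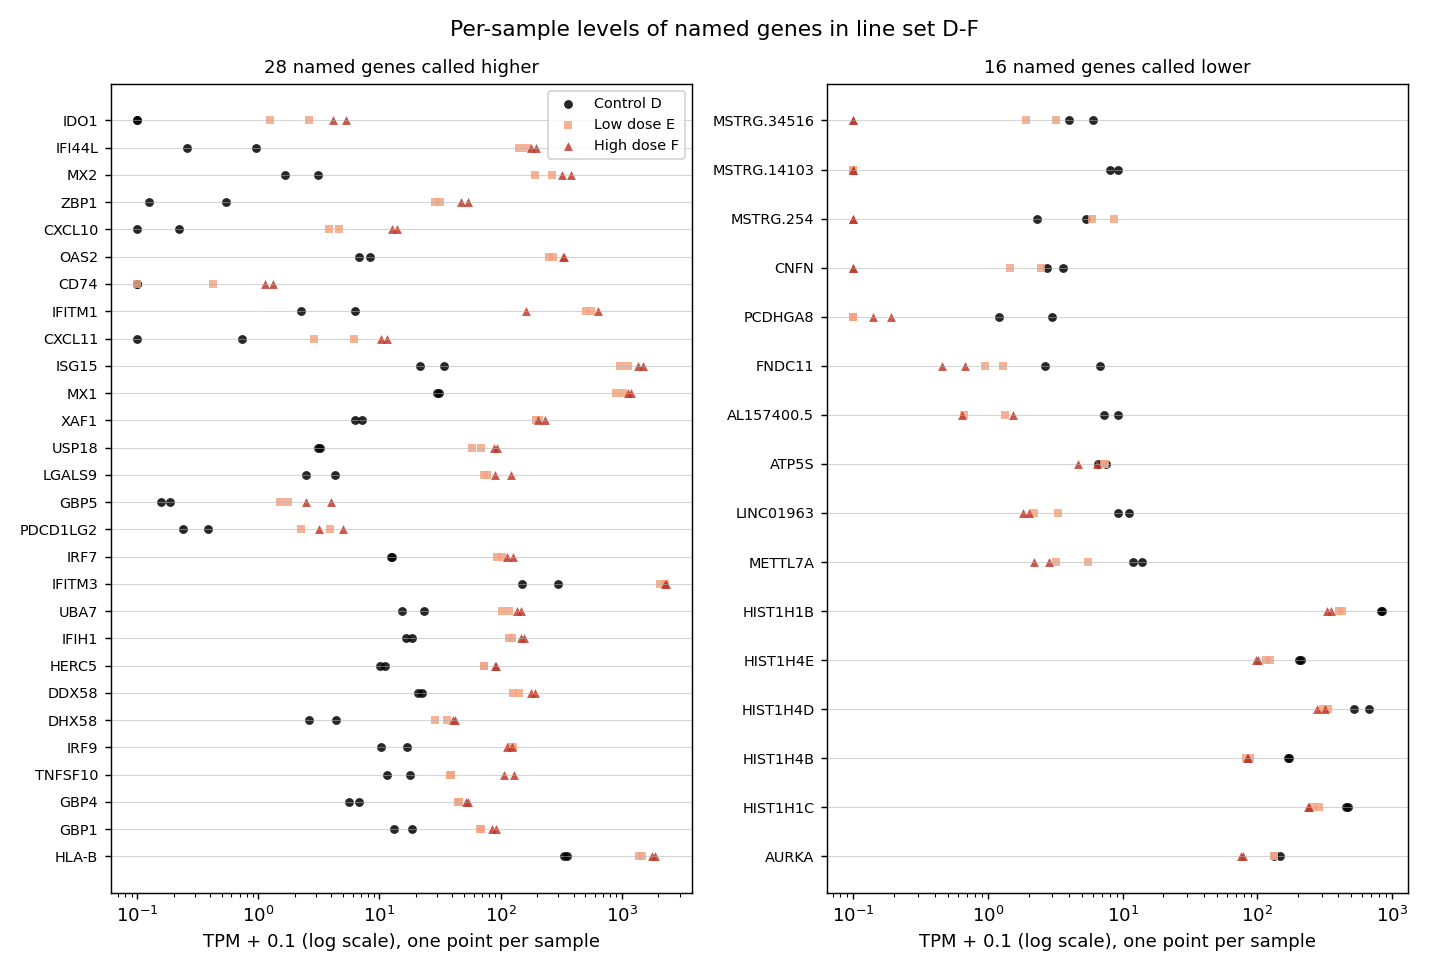
TPM plus 0.1 on a log scale in each sample of Control D (circles), Low dose E (squares) and High dose F (triangles), for 28 named genes called higher (left) and 16 called lower (right), ordered by fitted fold change. In the left panel every F sample lies to the right of both D samples, as in 25.3% of all tested genes by scaled counts. The F values of IFITM1 are spread over 162 to 635 TPM.

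Of 17 genes of antigen presentation by HLA class I, 7 were called higher and none lower. All 17 fold changes were above 0 (median log2 1.16), as were 9729 of the 19944 over all tested genes. HLA-B was at 354 and 332 TPM in D and 1782 and 1871 TPM in F (log2 2.36 ± 0.10, adjusted p = 4.2e-07). TAP1, a subunit of the peptide transporter, was at 39.1 and 42.3 TPM and then 150 and 154 TPM (log2 1.88 ± 0.09). HLA-E and HLA-F were also called, at log2 1.44 ± 0.10 and 2.14 ± 0.27. Every treated sample of these 4 genes lay above both controls, as in 25.3% of all tested genes by scaled counts. B2M, the light chain, was not called (log2 1.58 ± 0.57, adjusted p = 0.166) and was at 318 and 208 TPM in D and 600 and 773 TPM in F. HLA-C was likewise not called, with 183 and 223 TPM in D and 281 and 721 TPM in F. HLA genes resemble each other and HLA-B and HLA-C have overlapping positions in the table, so reads may have been split between them. The immunoproteasome genes PSMB8 and PSMB9 rose by 1.16 ± 0.10 and 1.39 ± 0.18 on the log2 scale. Without a minimum fold, 13 of the 17 genes had an adjusted p of at most 0.05, all of them higher. By the same rule 687 of all 19944 tested genes were higher and 477 lower.

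The genes of HLA class II presentation summed to 4.08 and 4.012 TPM in D and 6.55 and 5.70 TPM in F. Of the 9 tested 1 was called, CD74, the invariant chain. It had 0 counts in D1 and D2 and 12 and 8 counts in F1 and F2, which is at least 4.19-fold higher against a floor of 3 counts per library, and its call was lost without D1, D2 or F1. In the other line CD74 was at a mean of 244 TPM without treatment. CIITA, the class II transactivator, was at 0.284 and 0.437 TPM in D and 1.05 and 1.33 TPM in F (adjusted p = 0.142).

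Of 11 checkpoint and suppressive ligands, 5 were called higher and none lower. CD274, which encodes PD-L1, was at 9.18 and 12.7 TPM in D and 32.6 and 35.2 TPM in F (log2 1.82 ± 0.24, adjusted p = 0.00189). PDCD1LG2, which encodes PD-L2, was at 0.285 and 0.138 TPM and then 3.09 and 4.94 TPM (log2 4.12 ± 0.45). LGALS9, which encodes galectin-9, was at 4.21 and 2.35 TPM and then 123 and 89.8 TPM (log2 4.77 ± 0.24, adjusted p = 1.98e-06), and it has near-identical copies that may take a share of its reads. IDO1, which breaks down tryptophan, had 0 counts in both controls and 45 and 49 counts in F, at least 19.6-fold higher. Its treated level was 5.14 and 4.02 TPM. The treated samples of all 4 of these genes were above both controls, as in 25.3% of all tested genes by scaled counts. The PD-L1 gene started from a higher level than the others.

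Of 12 chemokines, 5 were called higher. CXCL10, which attracts T cells and NK cells, had 2 and 0 counts in D and 108 and 101 counts in F, a ratio of 131 with a counting interval of 35.8 to 1088 (95%). Its treated level was 13.8 and 12.6 TPM. CXCL8, which attracts neutrophils, was at 26.2 and 23.1 TPM in D and 99.8 and 114 TPM in F (log2 2.08 ± 0.14), and CXCL1 was at 97.6 and 84.0 TPM and then 227 and 263 TPM (log2 1.33 ± 0.13). CXCL2, also called, was at 7.74 and 5.93 TPM and then 13.9 and 15.6 TPM, and its call was lost without D2 (log2 0.79), F1 (1.33) or F2 (1.08), and also when the fit held D and F or D, E and F alone. Of the 21 cell death genes 4 were called. XAF1, an inhibitor of the caspase inhibitor XIAP, was at 6.19 and 7.01 TPM in D and 202 and 233 TPM in F (log2 5.00 ± 0.12). TNFSF10, the death ligand TRAIL, was at 17.6 and 11.4 TPM and then 130 and 107 TPM (log2 2.97 ± 0.37). CASP1 and MLKL, of pyroptosis and necroptosis, rose by 1.22 ± 0.13 and 1.09 ± 0.20 on the log2 scale, and MLKL lost its call without D1, F1 or F2. The other 17 cell death genes were not called.

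The genes called higher covered a wide range of untreated levels. Of the 333, 263 (79.0%) were at 1 TPM or more on average in D, 152 at 10 TPM or more and 13 at 100 TPM or more. The remaining 70 were under 1 TPM, and 16 of the 333 had 0 counts in both controls. Over all tested genes, 87.5% were at 1 TPM or more and 501 (2.51%) had 0 counts in both controls. The median level of the 333 was 7.81 TPM in D and 31.9 TPM in F. Calls were made for 2.81% of tested genes with a control level under 1 TPM, for 1.54% at 1 to 10 TPM, for 1.55% at 10 to 100 TPM and for 1.00% at 100 TPM or more. The median log2 increase was 3.20 under 1 TPM, with genes at 0 counts set to their bound, and 1.66, 1.77 and 1.27 in the higher classes. The control level comes from the same D samples as the fold change. Genes near 0 in D could pass the filter on low counts only through other groups. The share and size of the increases under 1 TPM are therefore partly fixed by these choices. Among the 46 antiviral effectors called, 43 were at 1 TPM or more in both controls and 33 at 10 TPM or more. The highest control levels among the called genes were those of LGALS3BP (400 and 437 TPM), HLA-B (354 and 332 TPM), H1F0 (358 and 291 TPM), LY6E (326 and 303 TPM) and IFITM3. LGALS3BP, a secreted glycoprotein, rose to 1045 and 814 TPM (log2 1.07 ± 0.11, and 0.98 without F1, which ends the call). H1F0, a linker histone of resting cells, rose to 1002 and 947 TPM (log2 1.51 ± 0.11). LY6E rose to 768 and 774 TPM.

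**Figure D3:**
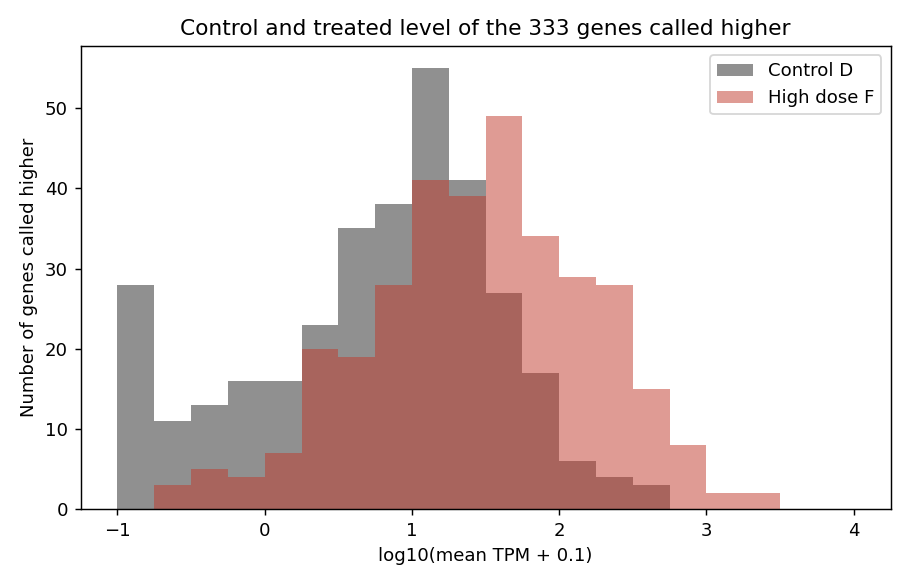
Number of genes called higher by their mean level in Control D (grey) and in High dose F (red), as log10 of mean TPM plus 0.1. The 333 genes shift from a median of 7.81 TPM to 31.9 TPM.

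Some genes with very low control levels had the largest fitted changes. At 0 counts the fitted size depends on the fit's prior count, so lower bounds are given. On the log2 scale the bound was 4.65 for UCN2 and 3.67 for LINC01285, under the 8.45 of IFI44L. UCN2, a stress hormone of the corticotropin family, had 0 counts in both controls and 33 and 88 in F, at least 25.1-fold higher. In the other line it was at a mean of 11.7 TPM without treatment. LINC01285, a long noncoding RNA on chromosome X, had 0 counts in D and 32 and 29 in F, at least 12.7-fold higher. BATF2, a basic leucine zipper factor, had 0 and 3 counts and then 252 and 216 counts, a ratio of 195 with a counting interval of 66.5 to 951. GRIP2, a scaffold of glutamate receptors, had 0 and 2 counts and then 129 and 114 counts, a ratio of 152 with an interval of 41.7 to 1264. The locus MSTRG.2582, assembled from the reads without a gene name, had 0 counts in D and 10 and 16 in F, at least 5.41-fold higher, and lost its call with any 1 of the 4 libraries left out. CXCL11, a chemokine like CXCL10, had 0 and 5 counts in D and 106 and 102 in F.

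The decreases were smaller and fewer. The most abundant genes called lower were replication-dependent histones, whose RNA has no poly(A) tail and is retained by rRNA depletion. HIST1H1B, a linker histone, was at 825 and 844 TPM in D and 354 and 331 TPM in F (log2 -1.37 ± 0.13, adjusted p = 0.000194). HIST1H1C was at 475 and 455 TPM and then 237 and 241 TPM, HIST1H4E at 204 and 213 TPM and then 97.6 and 101 TPM, and HIST1H4B at 168 and 173 TPM and then 84.9 and 83.7 TPM. HIST1H4D fell from 522 and 679 TPM to 277 and 318 TPM and lost its call without D2 or F1. In all 5 histone genes both treated samples were below both controls, as in 25.7% of all tested genes by scaled counts. Of 70 tested genes with HIST symbols, a set noted after their values were seen, 6 were called lower and 54 had a fold change below 0. HIST3H2A and HIST3H2BB were the 2 called higher. Over all 19944 tested genes, 83 were called lower and 333 higher, and 9729 had a fold change above 0. Histone copies are near-identical, so the division of reads among them is uncertain.

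Among other genes called lower, LINC01963, a long noncoding RNA on chromosome 2, was at 9.12 and 10.98 TPM in D and 1.72 and 1.90 TPM in F (log2 -2.54 ± 0.23, adjusted p = 0.000142). METTL7A, a methyltransferase-like protein of lipid droplets, was at 13.9 and 11.8 TPM and then 2.09 and 2.73 TPM (log2 -2.37 ± 0.50). PCDHGA8, a protocadherin of cell adhesion, had 116 and 48 counts and then 2 and 4, and lost its call without F1 or F2. CNFN, a protein of the cornified envelope, had 16 and 13 counts in D and 0 in both F samples, at least 3.86-fold lower. The assembled loci MSTRG.14103, MSTRG.34516 and MSTRG.254 had 0 counts in both F samples and were at least 11.7-, 16.4- and 4.54-fold lower. The calls of METTL7A, CNFN, FNDC11, AL157400.5 and ATP5S were lost with any 1 of the 4 libraries left out, and those of MSTRG.34516 and MSTRG.254 without D1, F1 or F2. FNDC11 had 117 and 60 counts in D and 7 and 12 in F, and AL157400.5 had 39 and 52 and then 3 and 7. For ATP5S, counts and TPM disagreed, with 281 and 283 counts in D and 32 and 32 in F beside 6.42 and 7.37 TPM and then 6.39 and 4.52 TPM. In 5 of the 416 called genes the TPM values of the groups overlapped, LPP, DCP2 and SMIM8 among them.

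In the cell cycle and lipid lists 1 gene passed the 2-fold threshold. Over all tested genes, 3734 (18.7%) had an unadjusted p under 0.05 in F against D, and the counts at that threshold are read against this share. Of 24 genes of G2/M and mitosis, AURKA, the mitotic kinase Aurora A, was the one called lower, at 134 and 147 TPM in D and 74.9 and 77.6 TPM in F (log2 -1.03 ± 0.11), and its call was lost without D2 (log2 -0.87). Without a minimum fold 9 of the 24 had an adjusted p of at most 0.05 and all 9 were lower. KIF20A (log2 -0.96 ± 0.08) and CENPF (log2 -0.78 ± 0.07) were among them. By the same rule 687 of all 19944 tested genes were higher and 477 lower. The median of the G2/M list was -0.34. Of 24 genes of sterol and fatty acid synthesis, 0 were called by edgeR and 0 by DESeq2, with 13 at an unadjusted p under 0.05, all lower, and a median of -0.34. ACACA, the rate-limiting enzyme of fatty acid synthesis, was at log2 -0.86 ± 0.07 (adjusted p = 5.94e-05) in the fit of counts, whereas its TPM was 119 and 150 in D and 114 and 108 in F. Of 24 genes of G1/S and replication, 0 were called by either tool, with 11 higher and 2 lower at an unadjusted p under 0.05 and a median of 0.20.

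The remaining lists had few calls, and their shares at an unadjusted p under 0.05 are again set beside the 18.7% of all genes. The EGFR ligands BTC and HBEGF rose by 1.76 ± 0.33 and 1.23 ± 0.15 on the log2 scale, and BTC lost its call with any 1 of the 4 libraries left out, while EGFR was at 352 and 334 TPM in D and 353 and 338 TPM in F. By edgeR and by DESeq2, 0 of 11 genes of epithelial-mesenchymal transition and cadherins were called (4 at an unadjusted p under 0.05), as were 0 of 12 of the integrated stress and unfolded protein responses (2), 0 of 13 mitochondrially encoded genes (3) and 0 of 8 acetyltransferases of the GCN5 group (1). KAT2A, which encodes GCN5, was at 28.3 and 31.2 TPM in D and 38.02 and 47.7 TPM in F (log2 0.52 ± 0.15, adjusted p = 0.0838). In the squamous differentiation list CNFN was the 1 call of 9 genes tested.

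**Figure D4:**
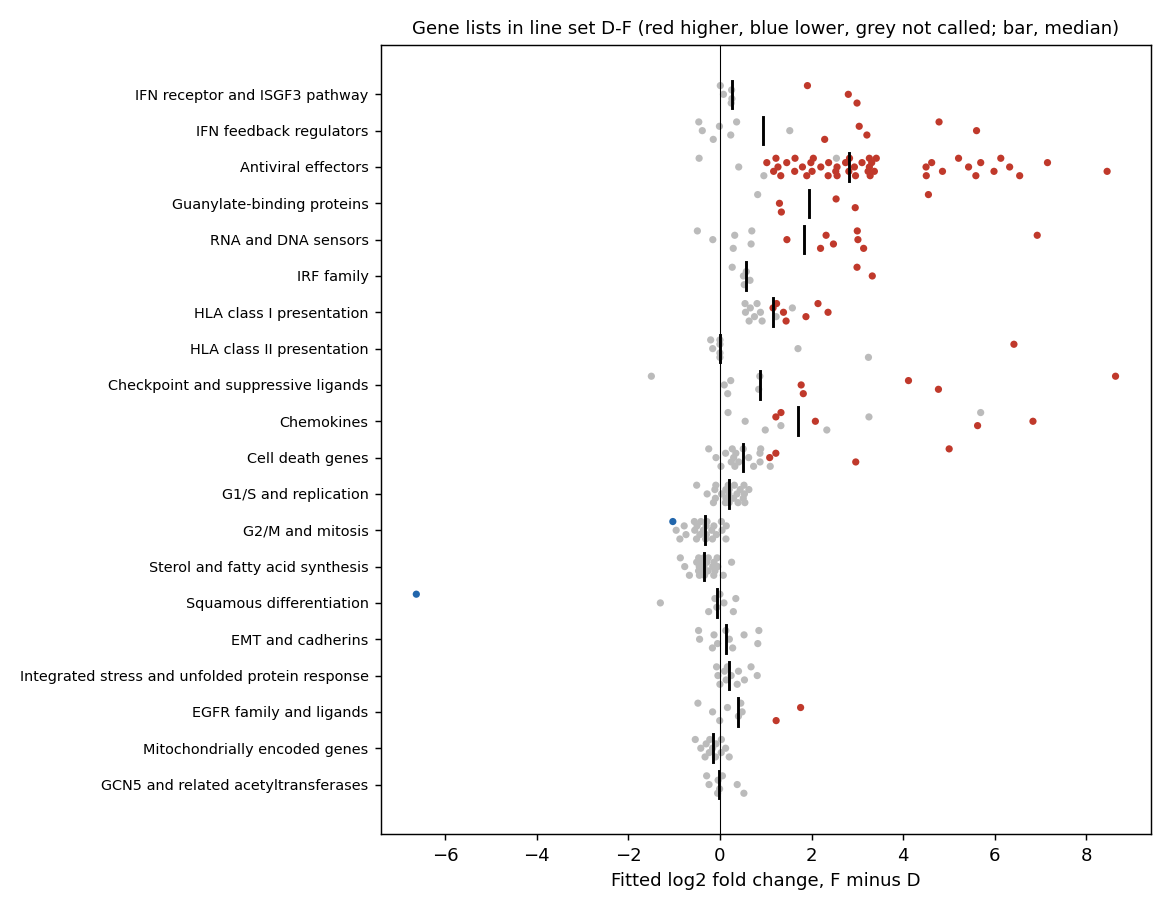
Fitted log2 fold change of F over D for every tested member of the 20 gene lists, with red for genes called higher, blue for genes called lower, grey for the others and a black bar at the list median. The median is 2.82 for the antiviral effectors and -0.34 both for G2/M and for sterol and fatty acid synthesis.

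Induced genes lay next to each other at 10 places, defined as runs of at least 3 tested neighbours all called higher, and these held 36 genes. They included OAS1, OAS3 and OAS2 on chromosome 12, IFIT3, IFIT1 and IFIT5 on chromosome 10, GBP4, GBP5 and GBP6 on chromosome 1, and PARP9, DTX3L and PARP14 on chromosome 3. The keratins KRT6B, KRT6C and KRT6A formed another run on chromosome 12. KRT6A, a keratin of activated epidermis, was at 51.1 and 47.5 TPM in D and 181 and 149 TPM in F, and KRT6B was at 6.54 and 6.98 TPM and then 42.9 and 39.8 TPM. KRT6C lost its call without D1 (log2 1.33) or F2 (1.64). The KRT6 genes are near-identical, as are the ANKRD20A and SNX18P copies that made up a pair of the runs. No run of 3 genes called lower was found. By class, 264 of 13494 protein-coding genes (1.96%) were called higher, as were 30 of 2852 long noncoding genes (1.05%), 19 of 1437 pseudogenes (1.32%) and 19 of 1703 assembled loci (1.12%).

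The change in line set D-F was compared with that from A to C in the other line, which shares no sample with it, by testing the difference of the 2 log2 fold changes. The difference was called positive for 124 genes (0.622%) and negative for 75 (0.376%). Both directions together made 199 genes, and this count was 339 without C1, 74 without F2, 89 without A2, 101 without D1, 103 without F1 and 127 without D2. HLA-B had a log2 fold change of 2.36 in D-F and 0.61 in A-C, a difference of 1.75 ± 0.13 (adjusted p = 0.00111). For ISG15 the changes were 5.60 and 2.79, for OAS2 6.54 and 4.37, for IFI44L 8.45 and 5.63 and for MX1 5.21 and 3.93, and the difference was called for each. CXCL8 rose by 2.08 on the log2 scale in D-F and had a log2 fold change of 0.32 in A-C, a difference of 1.76 ± 0.20. TRIM22, an antiviral ubiquitin ligase, had the smaller change in D-F, 2.56 against 3.72, and the call was lost without A2 (-0.98) or F2 (-1.13). For STAT2, IRF9, CD274 and LGALS9 the difference was not called, with values of 0.21 ± 0.16, 0.61 ± 0.25, 0.21 ± 0.34 and 1.25 ± 0.31. Of the 50 antiviral effectors, 11 had a larger change in D-F and 1 a smaller change.

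**Figure D5:**
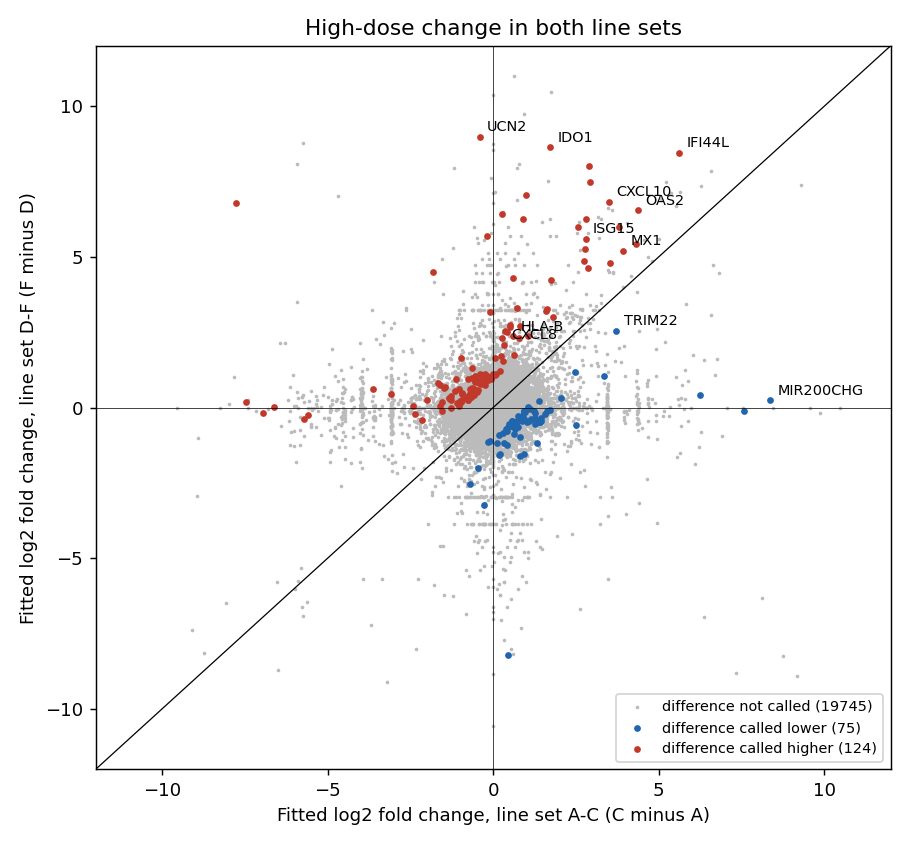
Fitted log2 fold change at the high dose in line set A-C (x axis) and in line set D-F (y axis) for all tested genes, with genes whose difference was called positive in red (124) and negative in blue (75), and a line of equal change. ISG15, OAS2, IFI44L and MX1 lie above the line and TRIM22 lies below it.

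The untreated levels of the interferon genes differed between the lines. In D against A, 3124 of all genes (15.7%) were called higher and 2186 (11%) lower. Of the 96 tested genes of the 6 lists of interferon signalling and effectors, 7 were called higher in D and 30 lower. Among the 50 antiviral effectors 4 were higher and 18 lower, and their median level was 21.2 TPM in D and 33.2 TPM in A. ISG15 was at a mean of 108 TPM in A against 21.5 and 33.8 TPM in the D samples, and MX1 was at 68.7 TPM against 29.9 and 31.1 TPM. Both genes had a larger change in D-F by a test that uses the same A and D samples. Their lower level in D is partly fixed by that choice. BST2 and TRIM22 were among the 4 effectors called higher in D. BST2 was at a mean of 54.9 TPM in A against 213 and 193 TPM in D. TRIM22 was at 14.8 TPM against 61.3 and 53.1 TPM. After treatment MX1 was at a mean of 1154 TPM in C, near the 1192 and 1134 TPM in F. All 9 tested genes of class II presentation were called lower in D. Each line has its own set of samples, so the line and anything else that differed between the sets cannot be told apart.

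Few genes differed between the doses by the same threshold. In F against E, 3 genes (0.015%) were called, and 896 had an unadjusted p under 0.05. The 3 were C1GALT1C1, TOMM6 and MSTRG.72869, and they are named because they are so few, after their values were seen. C1GALT1C1, a chaperone of O-glycosylation, had 283 and 312 counts in D, 54 and 58 in E and 272 and 272 in F, so that the low-dose samples stood apart. TOMM6, of the mitochondrial import pore, had 286 and 198 counts in E against 51 and 47 in F. None of the 3 was called in F against D. DESeq2 called 27 genes, and edgeR called 13 without F1 and 7 without E1. The median level of the 333 genes was 7.81 TPM in D, 24.3 TPM in E and 31.9 TPM in F, and since these genes were chosen for F against D, their order between E and F is partly fixed by that choice. MX1 was at 891 and 1034 TPM in E, below both F samples. TNFSF10 was at 38.8 and 37.8 TPM in E, between the controls and the high dose. AURKA was at 133 and 134 TPM in E, close to the 134 and 147 TPM of the controls. KIF20A and CENPF, also of the G2/M list, were already lower in E. KIF20A was at 132 and 104 TPM in D and 61.9 and 66.1 TPM in E. CENPF was at 120 and 101 TPM and then 73.9 and 74.5 TPM. AURKA, KIF20A and CENPF were not called in F against E.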

How the data were processed

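RNA of 12 samples of 2 HNSCC cell lines was sequenced by the authors from rRNA-depleted, strand-specific libraries. The submitters' processing notes name Trimmomatic 0.36, HISAT2 2.1.0, StringTie 1.3.3b and GRCh38 p10. Whether counting used strand is not given in the sources used here. The authors deposited expected counts per gene, as integers without depth scaling, and TPM, scaled for length and depth. The transcript table was not used.

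All 12 samples were fitted in 1 model of 6 groups on these counts, using edgeR 4.0.16 under R 4.3.3 (TMM, filterByExpr, quasi-likelihood test, Benjamini-Hochberg adjustment), which kept 19944 of 60099 genes. The groups share 1 estimate of the spread. Each SE was the size of the log2 fold change over the root of its F statistic. DESeq2 1.42.0 was an alternative. A fold against 0 counts was computed against 3 counts per library and is a lower bound, and counting intervals (95%) cover counting error only. Tables and figures used Python with pandas, numpy and matplotlib, and the fit was tested on simulated data.

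Members and lists were chosen with earlier results of these data known. The genes named were the 10 highest and 10 lowest called changes at a mean of 1 TPM or more with samples that did not overlap, up to 4 called members of each list with STAT2, IRF9, MX1, CD274, LGALS9 and KAT2A, the most abundant called genes, and the 5 highest and 5 lowest differences from the other line. Others, chosen after their values were seen, are IFIT1, IFIT3, OAS1, OAS3, RSAD2, IFI6, BST2, EIF2AK2, TRIM22, SAMD9L, MAVS, IRF1, JAK1, IFNAR1, STAT3, SOCS1, HLA-C, B2M, NLRC5, PSMB8, PSMB9, CIITA, CXCL2, CD68, KRT6A, KRT6B, KRT6C, KIF20A, CENPF, ACACA, EGFR and the genes of runs and overlaps. Some genes are not reported here. Gene classes came from GENCODE 29 and promoters from RefSeq GRCh38.p14. Replicate numbers come from the titles, and same-numbered samples had deviations correlated between -0.043 and 0.056, so the numbers do not pair the samples.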

Additional observations from a re-analysis of the deposited data

Results flagged for a closer look

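Groups of 2 samples are too small to look for a sample far from its group. What was flagged are the genes named here whose high-dose change differed between line set D-F and line set A-C in the test of the difference itself (edgeR, adjusted p of at most 0.05 and a difference of at least 1 on the log2 scale). The signed difference was positive for 25 and negative for 8.

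Positive differences among genes with counts in every group were found for interferon-stimulated genes. The difference was 2.83 for IFI44L, 2.81 for ISG15, 2.18 for IFI6 and OAS2, 1.77 for IFIT3, 1.64 for IFITM3, 1.62 for UBA7, 1.28 for MX1, 1.24 for USP18 and 1.12 for IFIT1. It was 1.75 for HLA-B, 1.52 for NLRC5, the activator of class I genes, 1.76 for CXCL8, 1.89 for CD68 and 2.18 for the keratin KRT6B. Genes with few or no counts in D had fitted differences of 9.40 (UCN2), 6.91 (IDO1), 6.14 (CD74), 6.06 (GRIP2), 5.13 (LINC01285), 4.56 (BATF2) and 3.33 (CXCL10), which depend on the fit's prior count and are no bounds.

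In the other line MSTRG.2582, with a fitted difference of 14.56, MSTRG.9351 (7.65) and FAM171A2 (6.78) were at 0 TPM in C and not in A, and these differences are no bounds either. Negative differences were of 2 kinds. The decrease was deeper in D-F for HIST1H4E (-1.0) and LINC01963 (-1.84), and MSTRG.14103 (-8.67) was lower in F than in D with a change of 0.45 in A-C. The increase in A-C exceeded the change in D-F for TRIM22 (-1.17), MSTRG.43103 (-3.09), MSTRG.18772 (-5.82), MSTRG.6375 (-7.70) and MIR200CHG (-8.12). Of these, MSTRG.18772, MSTRG.6375 and MIR200CHG were at 0 TPM in A, and MSTRG.14103 was at 0 counts in F.

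The call of a difference was lost with 1 of the 8 libraries of D, F, A and C left out for several of these genes. CD68 lost it without F2 (1.84) and TRIM22 without A2 (-0.98) or F2 (-1.13). IFIT1 lost it without A1, D1, D2, F1 or F2 (0.88 to 1.13), USP18 without A2, C2, D1, D2, F1 or F2 (1.03 to 1.25) and IFITM3 without any but D1 or D2 (1.56 to 1.73). GRIP2, IDO1, UCN2, CXCL10, CD74, LINC01285, FAM171A2, MSTRG.2582, MSTRG.43103, MSTRG.18772, MSTRG.6375, LINC01963 and HIST1H4E lost it without any 1 of 4 or more libraries. With other settings, DESeq2 lost the differences of CXCL10 and LINC01285, and the fit without a filter lost these and HIST1H4E. The causes were not tested.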

How the results depend on the processing

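With DESeq2, RLE factors, no filter, a mean of at least 50 counts, only D and F or only D, E and F, the genes called higher and lower in F against D stayed within 1.5 times of 333 and 83, as did the 94 list members called, which stayed so under every alternative. These are totals, and the genes behind them changed in part. With these settings, the number of the 83 genes called lower that were called again ran from 50 with D and F only to 83 with RLE factors. It was 75 with DESeq2 and 63 with D, E and F only. Of the 333 called higher, it ran from 262 with D and F only to 332 with RLE factors. Fewer of the 83 and of the 333 were called again with any 1 library of D or F left out than with any of these settings. The share called again was then smaller among the genes called lower than among those called higher. The threshold mattered more for the totals. With an unadjusted p and a 2-fold minimum, 634 genes were higher and 316 lower, and with an adjusted p and no minimum fold 687 were higher and 477 lower. With a library left out, 247 to 263 were higher and 48 to 72 lower, and 89 to 91 list members were called. Differences between D-F and A-C numbered 349 with DESeq2, 69 with the replicate block, 1253 with an unadjusted p, 375 without a minimum fold and 74 to 339 with a library left out. List members called in D against A numbered 183 without a minimum fold. Genes called in F against E, 3 by edgeR, numbered 27 with DESeq2, 6 without a filter, 346 with an unadjusted p, 5 without a minimum fold, 12 with D, E and F only and 2 to 13 with a library left out. With the replicate block 0 were called by edgeR, and 888 had an unadjusted p under 0.05.

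With the block, 298 genes were higher and 58 lower in F against D, the call of CXCL2 was lost, and 16 of the 33 named differences between the lines lost theirs, BATF2 and MSTRG.14103 among them. No named value that was called changed sign. The share of genes called higher with a control level at or above the threshold was 79.0% at 1 TPM, 83.8% at 0.5 TPM and 58.6% at 5 TPM. With 2 samples per group and 11540076 counts in the shallowest of the 4, small changes of weakly expressed genes are beyond what can be resolved. The causes of these shifts were not tested.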
